A study of Homo sapiens with 30 samples.

Results

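Interferon-stimulated genes are switched on when a cell detects interferon or viral nucleic acid. The 47 described here were chosen by symbol, as interferon-stimulated genes outside the IFIT and OAS families. All 47 were found in both deposited tables, among the 26443 genes that carried values in each. They fall into 6 roles. There are 7 sensors and RNA-binding proteins, 6 transcription factors and partners, 7 genes of the ISG15 and ubiquitin system, 4 PARP and DTX3L genes, 13 antiviral effectors and 10 others.

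The cells were LNCaP, an androgen-responsive prostate cancer line, and RNA-seq expression tables covered 30 libraries in 10 groups of 3. In the pLKO experiment the cells were infected for 5 days with a pLKO control or with an shRNA to USP7 (a deubiquitinase), BUB3 (a spindle checkpoint protein) or FOXA1 (a pioneer transcription factor of prostate cells). In the siRNA experiment they were transfected for 4 days with siCtrl or with siRNA to EZH2, the methyltransferase of Polycomb repressive complex 2. In the pGIPZ experiment they were infected for 5 days with the pGIPZ control, with shFoxA1 alone, or with shFoxA1 together with HA-tagged FOXA1, either wild type (WT) or the K295A mutant. The third K295A library falls outside the range of samples given in the protocol, and its day was taken from its group. All 4 pGIPZ groups and all 4 pLKO groups were infected, controls included, and both re-expression groups also carry shFoxA1. No library from uninfected cells was used here, and all groups come from a single cell line. The USP7 libraries are titled shUSP7-1, and no label says whether a knockdown used a single hairpin or siRNA or several. Nothing in the labels says whether the 3 replicates of a group were separate cultures, so the p-values measure only the spread between these libraries.

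As background, type I and type III interferons bind cell-surface receptors, and the kinases JAK1 and TYK2 then act through the complex ISGF3, which holds STAT2 and IRF9. ISGF3 binds the interferon-stimulated response element (ISRE) in the promoters of many of these genes. Cells can also turn on many of the same genes without interferon, through the RNA sensors RIG-I (DDX58) and MDA5 (IFIH1), the adaptor MAVS and the factors IRF3 and IRF7. LNCaP is known for low JAK1 and a weak response to interferon.

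The promoters of members that carry the main results are shown first, because the ISRE is where ISGF3 binds and the rule that chose the genes did not use sequence. Each line gives the 120 bases before the RefSeq start on GRCh38.p14, read 5′ to 3′ on the gene's strand, with every match to the ISRE letters (GAAANNGAAA, either strand) in capitals. ISG15, a ubiquitin-like modifier, has the window chr1:1013377-1013496 on the plus strand and holds 2 overlapping matches. IFI6, a small protein that limits apoptosis, has the window chr1:27672193-27672312 on the minus strand. IFI27, a small protein of mitochondria and nuclear membrane, has the window chr14:94110616-94110735 on the plus strand. IFITM3, which blocks viral entry at endosomes, has the window chr11:320861-320980 on the minus strand. IFI44, a cytoplasmic protein of interferon responses, has the window chr1:78649669-78649788 on the plus strand. RSAD2 (viperin), a radical SAM enzyme that halts viral replication, has the window chr2:6865765-6865884 on the plus strand and has no match in the window searched, so its line has no capitals.
ISG15: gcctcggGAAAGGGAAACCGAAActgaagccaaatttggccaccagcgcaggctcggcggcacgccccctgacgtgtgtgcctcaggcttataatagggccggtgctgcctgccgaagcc
IFI6: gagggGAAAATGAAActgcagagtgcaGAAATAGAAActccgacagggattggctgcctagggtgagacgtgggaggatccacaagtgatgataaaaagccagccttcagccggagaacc
IFI27: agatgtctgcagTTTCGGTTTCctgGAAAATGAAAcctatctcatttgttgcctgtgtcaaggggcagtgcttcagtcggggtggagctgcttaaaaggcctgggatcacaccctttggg
IFITM3: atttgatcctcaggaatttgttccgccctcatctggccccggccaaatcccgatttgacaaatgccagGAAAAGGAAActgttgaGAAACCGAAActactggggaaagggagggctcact
IFI44: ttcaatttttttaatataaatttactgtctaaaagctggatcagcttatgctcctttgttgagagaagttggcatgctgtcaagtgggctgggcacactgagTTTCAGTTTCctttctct
RSAD2: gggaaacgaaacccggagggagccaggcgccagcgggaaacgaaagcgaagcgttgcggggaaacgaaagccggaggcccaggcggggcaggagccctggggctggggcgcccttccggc

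RefSeq promoter windows, from 250 bases before to 50 after the start, were found for 41 of the 47 members. For 35 of these 41 the promoter matched a GENCODE transcript start. In 25 of those 41 (61.0%) the window held the ISRE letters, against 996 of 27305 windows of all genes (3.65%). The letters TTCNNNGAA of GAS, the interferon gamma-activated site, were in 11 members (26.8%), against 7.88% of all windows, and the FOXA letters TGTTTAC were in 2 (4.88%, CMPK2 and SAMD9L), against 3.41%. A match describes letters, not binding. Within the members, the 22 tested ISRE-holding genes of the pGIPZ experiment had a median log2 difference of -0.53 after FOXA1 knockdown, with 16 lower, and the 14 without the letters had a median of -0.37, with 10 lower. The difference between these medians was not tested.

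The labels were checked on the targeted genes. USP7 fell from 28.2 ± 0.517 to 6.21 ± 0.143 FPKM, BUB3 from 36.3 ± 2.34 to 4.00 ± 0.629, EZH2 from 12.6 ± 0.908 to 4.98 ± 0.128, and FOXA1 from 116 ± 0.191 to 59.0 ± 1.68 in the pLKO experiment (SD, n = 3 each). In the pGIPZ experiment FOXA1 fell from 132 ± 2.38 to 82.5 ± 1.87 RPKM with shFoxA1 and stood at 152 ± 0.899 with WT and 151 ± 2.90 with K295A. The tables do not part endogenous from introduced FOXA1. FOXA1 was also lower in siEZH2 (91.2 ± 5.40 FPKM) than in siCtrl (133 ± 3.17). EZH2 was also lower in the pLKO knockdowns of USP7 (6.27 FPKM), BUB3 (4.55) and FOXA1 (5.87) than in their control (12.6). The number of genes at 1 or above was 11262 to 12000 in a library. The third shBUB3 library stood apart with a summed FPKM of 367614, the highest of the 12 in its experiment. All 10 luminal prostate markers had a mean of at least 1 in every group. Their summed level was lower in shUSP7 (1377 to 1444 FPKM), shBUB3 (1647 to 1910.4) and shFOXA1 (1709 to 1801) than in the pLKO control (2456 to 2504).

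The members' levels were first described across the 10 groups. In the pLKO control 26 of the 47 members reached 1 FPKM in all 3 libraries, with a median level of 1.59 FPKM, and the siCtrl libraries gave 25 and 1.36. In the pGIPZ control 39 reached 1 RPKM, the median was 8.99 RPKM and the summed level was 1589 RPKM, against 301 FPKM in the pLKO control. These tables were normalized separately, so this contrast between experiments is a description with no test. Across the pGIPZ groups the summed level went from 1589 RPKM in the control to 909.8 with shFoxA1, 609.9 with WT and 683 with K295A. Per library, the members took 0.555 to 0.571% of the summed RPKM in the control, 0.325 to 0.336% with shFoxA1, 0.206 to 0.209% with WT and 0.228 to 0.234% with K295A, with no overlap between any of the groups. In bulk RNA, fewer responding cells and less RNA in each cell cannot be told apart.

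ISG15 was the most abundant member in every pGIPZ group. The next levels in the pGIPZ control belonged to IFI6 (271 RPKM), IFITM3 (146) and LGALS3BP, a secreted galectin-binding glycoprotein (68.7). In the pLKO control the order began with IFITM3 (56.4 FPKM), ADAR, the RNA-editing deaminase (41.3), ISG15 (38.2) and LAP3, a leucine aminopeptidase (34.5). At the low end, IFI16, a DNA sensor, and NMI, a partner of STAT proteins, did not pass the filter on low values in any experiment, nor did PARP14, MX2, SAMD9L and EPSTI1. The filter asked for a value of at least 1 in 3 or more libraries of the experiment.

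**Figure D1:**
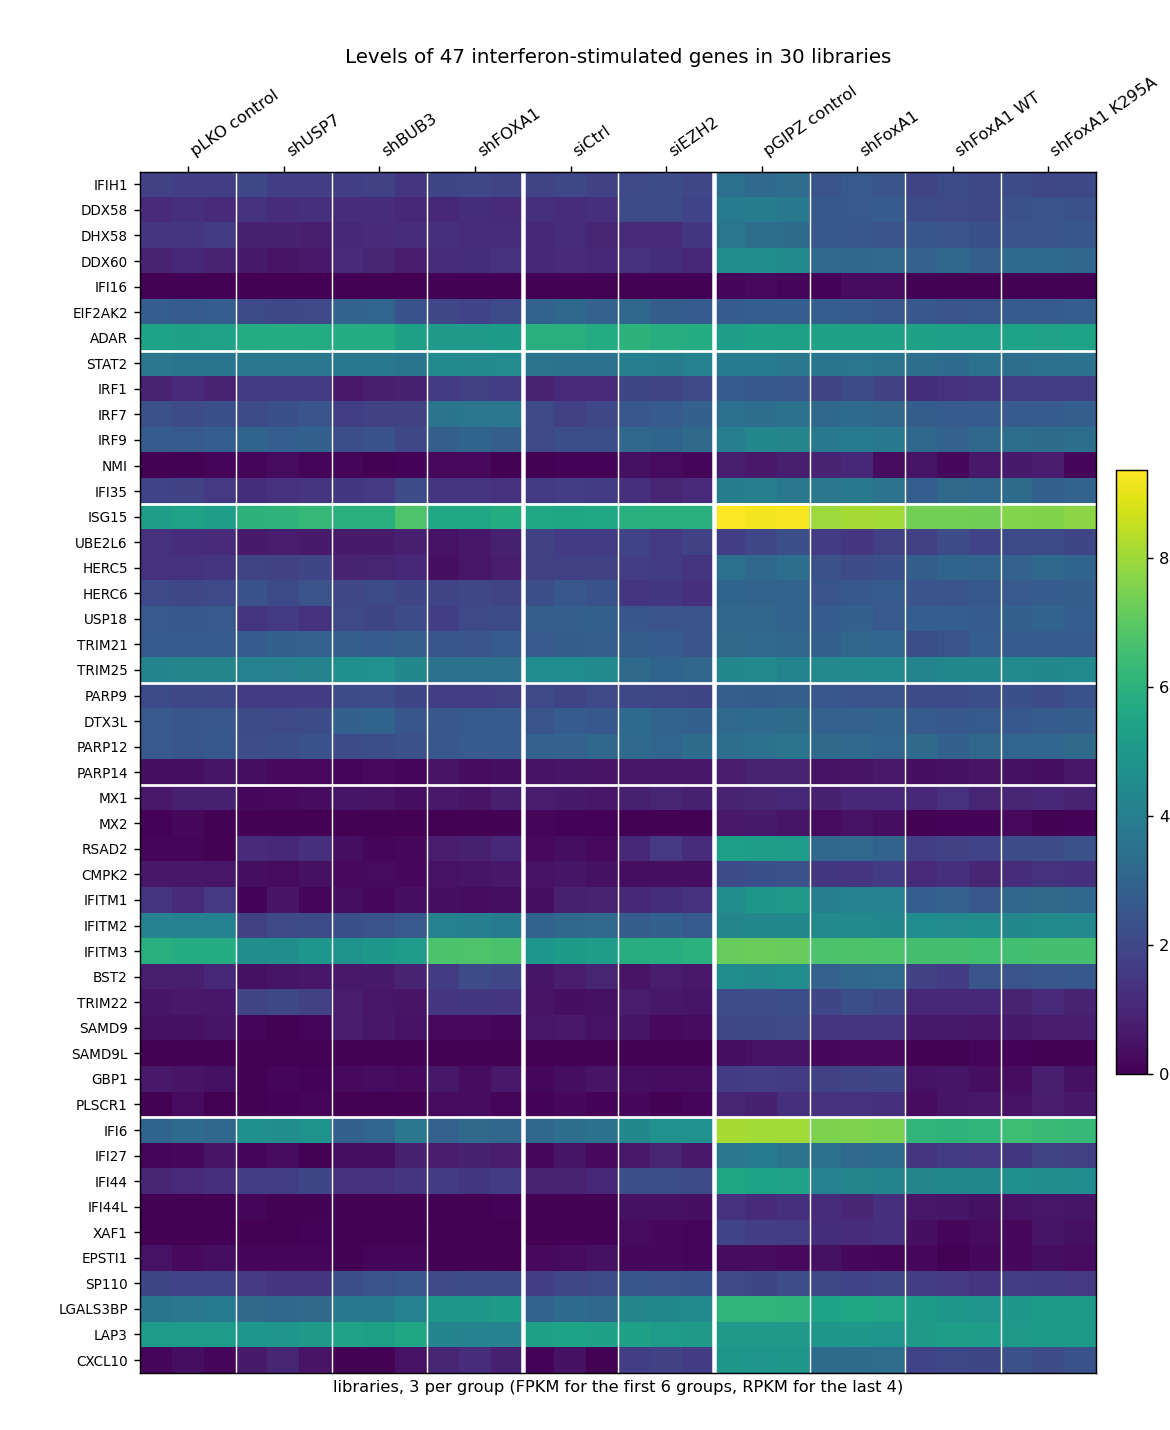
Level of each of the 47 members (rows, by role) in each of the 30 libraries (columns, by group) as log2(value + 1), with FPKM in the pLKO and siRNA experiments and RPKM in the pGIPZ experiment. Brighter cells are higher levels, and ISG15 is the highest row in all 12 pGIPZ libraries. The RPKM and FPKM columns were normalized separately.

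Each experiment was tested with limma on log2(value + 1), a log scale that understates changes of low genes, and a gene was called when its adjusted p was under 0.05 over all genes tested. Of the 47 members, 32 passed the filter in the pLKO experiment, 31 in the siRNA experiment and 41 in the pGIPZ experiment. UBE2L6 and IFITM1 passed in pLKO, and RSAD2, IFITM1 and CXCL10 in siRNA, through a single group, so for these a difference was built into passing. In pLKO, members such as TRIM22, RSAD2, IRF1, BST2 and DDX60 passed in part through knockdown groups where they were higher than the control. So did IFI44 and IRF1 in siRNA, and these members stay in all counts. Counts without the filter are given for the members as a whole in each comparison, and not for single roles. In the knockdowns many genes of the whole table were called, so each count of members is read against that share.

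**Figure D2:**
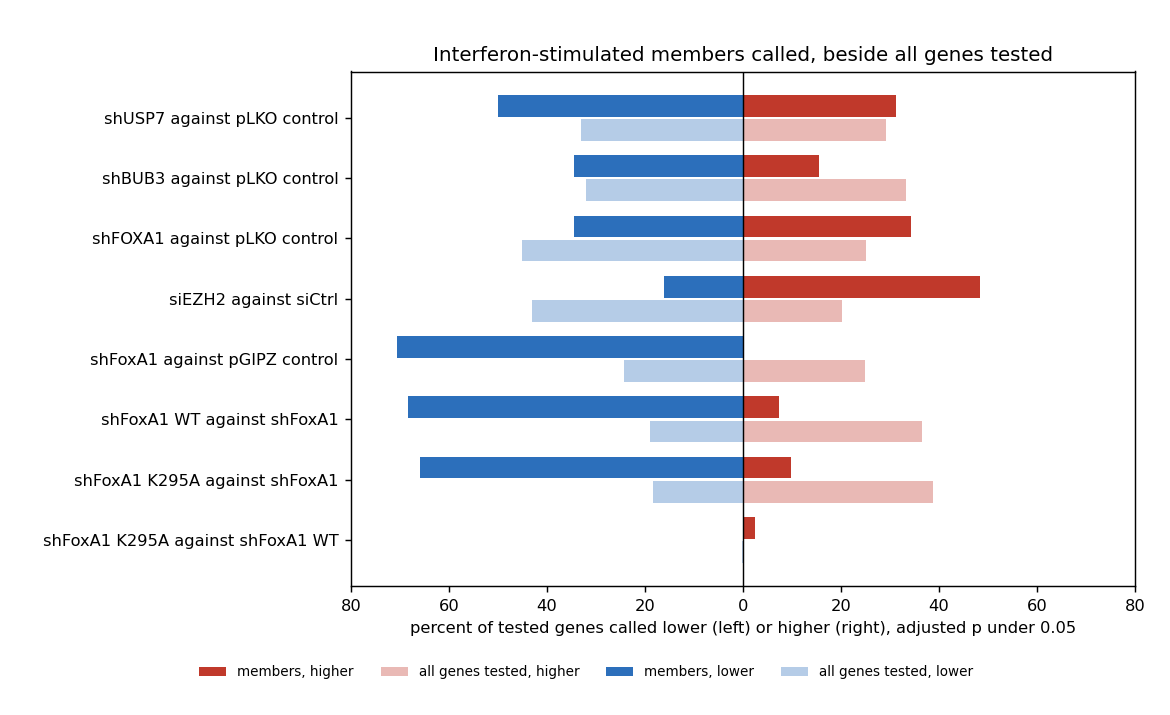
Percent of the members tested and of all genes tested that were called lower (bars to the left, in blue) and higher (bars to the right, in red) in each of the 8 comparisons (x axis in percent; pale bars, all genes tested). The bar of members called lower is longest in the 3 pGIPZ comparisons against the control or shFoxA1, and that of members called higher is longest for siEZH2.

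In the pGIPZ experiment shFoxA1 was first set against the pGIPZ control, with FOXA1 lowered but not absent. The summed level of the members fell again on re-expression, as given above, and the part of FOXA1 in these differences was not tested. Of the 41 members tested, 29 fell (70.7%) and 0 rose, while over all genes 24.2% were called lower and 25% higher by limma. Without the filter, all 47 could be counted and 31 fell and 0 rose. The median log2 difference of the members was -0.37, against 0.00 for all genes. The 10 luminal markers summed to 2795 to 2843 RPKM in the control, 2384 to 2427 with shFoxA1, 2081 to 2137 with WT and 2012 to 2036 with K295A, with 5 of the 10 called higher and 5 lower after knockdown, and their part in the results of this experiment was not tested.

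Of the sensors and RNA-binding proteins, 4 of 6 tested fell. DDX58, the RIG-I sensor of viral RNA, was at 13.9, 14.4 and 12.7 RPKM in the control and 4.97, 5.11 and 5.63 with shFoxA1 (log2 difference -1.23 ± 0.058 (SE), adjusted p = 8.74e-09). IFIH1, the MDA5 sensor of long double-stranded RNA, went from 9.66, 8.22 and 9.10 to 4.34, 5.19 and 4.58 RPKM (log2 difference -0.81 ± 0.077 (SE), adjusted p = 3.81e-06). DDX60, a helicase that aids RIG-I, went from 23.4, 23.2 and 21.2 to 8.10, 7.99 and 8.18 (log2 difference -1.37 ± 0.076 (SE), adjusted p = 3.47e-08). In each of these 3 genes every control library was above every shFoxA1 library. DHX58, the LGP2 regulator of both sensors, fell as well, from a mean of 10.0 ± 1.43 to 4.70 ± 0.372 RPKM (log2 difference -0.94). ADAR and EIF2AK2 (PKR, the kinase that halts translation) were not called, with log2 differences of 0.04 ± 0.031 and -0.09 ± 0.065 (SE).

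Of the transcription factors 4 of 5 tested fell, by at most 0.63 on the log2 scale. IRF1 went from 5.48, 4.98 and 4.86 to 2.81, 3.42 and 2.62 RPKM (log2 difference -0.63 ± 0.083 (SE), adjusted p = 5.49e-05), with no overlap between the groups. IRF9, the DNA-binding subunit of ISGF3, and IRF7, the factor that drives interferon genes, differed by -0.37 and -0.24, and IFI35, a partner of NMI, was not called (-0.20 ± 0.13).

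In the ISG15 system 5 of 7 fell. ISG15 itself (chr1:1001138-1014540, plus strand, GENCODE 29 on GRCh38) was at 658, 593 and 605 RPKM in the control and 254, 273 and 269 with shFoxA1 (log2 difference -1.22 ± 0.045 (SE), adjusted p = 1.05e-09). The lowest control library lay far above the highest shFoxA1 library. HERC5, the ligase that attaches ISG15, went from 9.60, 8.06 and 9.47 to 4.06, 3.53 and 3.86 RPKM (log2 difference -1.06 ± 0.083 (SE), adjusted p = 7.23e-07), again without overlap. HERC6 and USP18, the protease that removes ISG15, fell by 0.43 and 0.32. TRIM25, a ligase acting on RIG-I, and TRIM21, a cytosolic antibody receptor, were not called.

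All 3 tested PARP and DTX3L genes fell, by 0.30 to 0.36. Of the antiviral effectors 6 of 11 fell. RSAD2 (chr2:6865806-6898239, plus strand) had the largest difference of the 41 members, from 37.5, 37.4 and 34.2 to 7.70, 8.24 and 6.97 RPKM (log2 difference -2.11 ± 0.075 (SE), adjusted p = 6.25e-10). BST2 (tetherin), which holds budding virions at the cell surface, went from 22.9, 20.9 and 23.2 to 6.73, 7.42 and 8.10 (log2 difference -1.47 ± 0.15 (SE), adjusted p = 8.25e-06). Neither gene's groups overlapped, and the 3 libraries of each group lay close together. IFITM1, CMPK2 (a mitochondrial nucleotide kinase read from the opposite strand beside RSAD2), SAMD9 and IFITM3 fell by 0.76, 0.69, 0.59 and 0.48. GBP1, a GTPase that attacks pathogen membranes, and PLSCR1, a membrane scramblase, had log2 differences of 0.27 ± 0.12 and 0.27 ± 0.12 and were not called, with all 3 shFoxA1 libraries above the control in both.

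Among the others 7 of 9 fell. CXCL10, a chemokine that draws T cells (chr4:76021117-76023497, minus strand), went from 30.3, 28.8 and 30.2 to 9.04, 8.85 and 9.27 RPKM (log2 difference -1.61 ± 0.056 (SE), adjusted p = 5.51e-10). IFI44 went from 46.1, 42.3 and 40.8 to 16.5, 18.4 and 17.5 (log2 difference -1.25 ± 0.057 (SE), adjusted p = 6.25e-09). Both were without overlap. LGALS3BP, IFI6, XAF1 (a binder of the apoptosis inhibitor XIAP) and IFI27 fell by 0.66, 0.57, 0.53 and 0.43. IFI44L, the neighbour of IFI44 on chromosome 1, was not called (-0.09 ± 0.10). Leaving out a single library ended 4 of the 29 calls: STAT2 without pGIPZ control replicate 1 or 2 or shFoxA1 replicate 1 or 3 (adjusted p = 0.0552 to 0.0941), UBE2L6 without pGIPZ control replicate 2 or 3 or shFoxA1 replicate 1 or 2 (adjusted p = 0.0718 to 0.15), PARP12 without pGIPZ control replicate 3 (adjusted p = 0.054) and LAP3 without pGIPZ control replicate 1 or 2 or 3 or shFoxA1 replicate 1 or 3 (adjusted p = 0.0535 to 0.127).

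**Figure D3:**
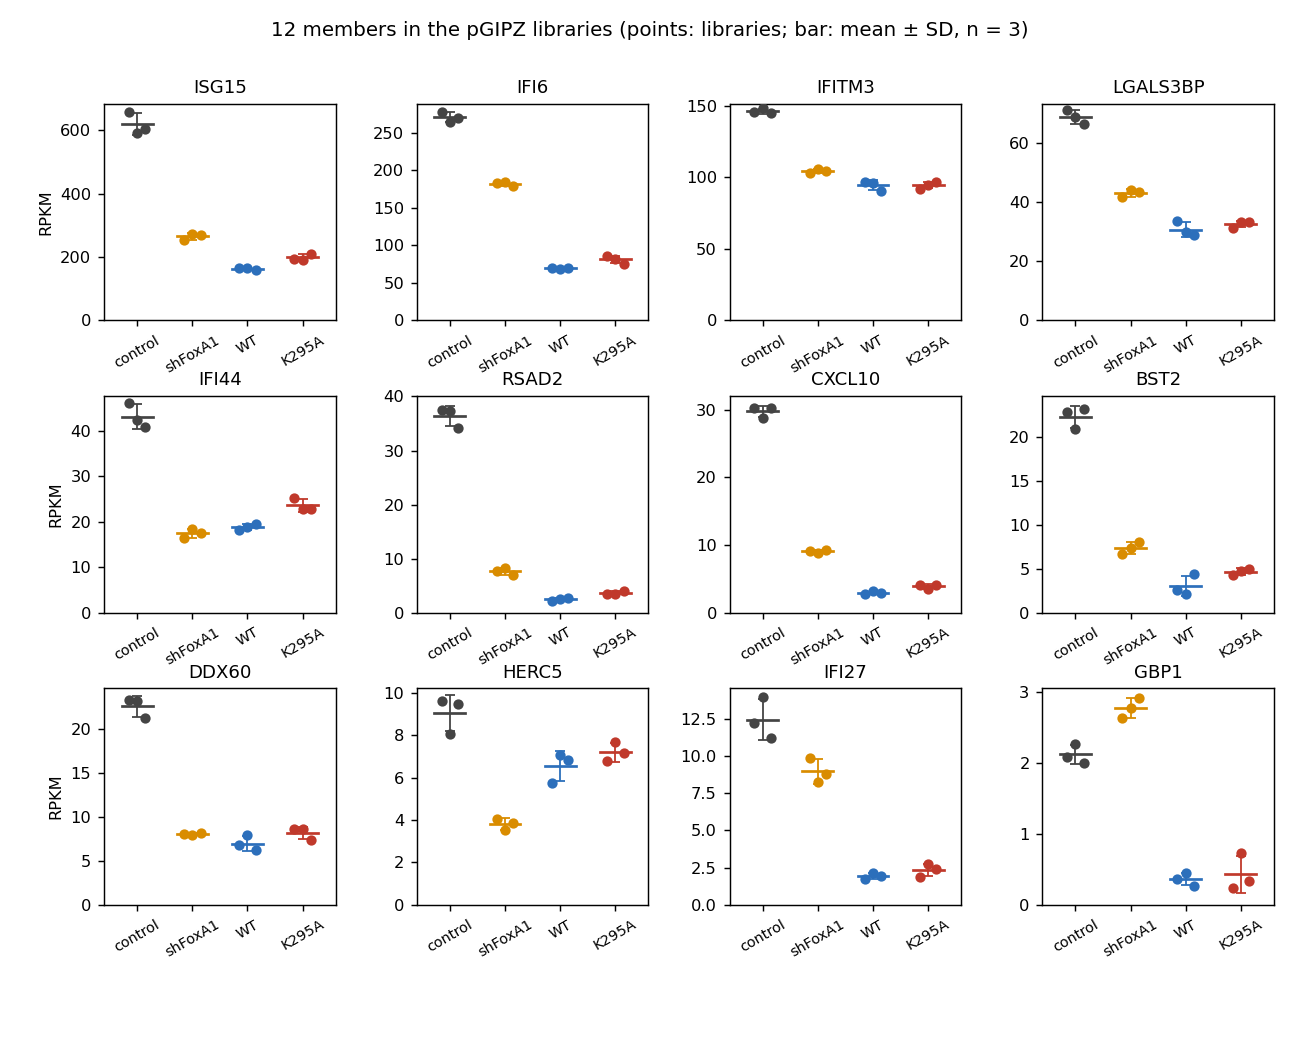
RPKM of 12 members in each library of the 4 pGIPZ groups (points), with the group mean and SD. RSAD2, CXCL10 and ISG15 step down from control to shFoxA1 to the re-expression groups, while HERC5 and IFI44 do not fall further with WT or K295A.

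When FOXA1 was re-expressed in the knocked-down cells, most members tested were lower than with shFoxA1 alone. Against shFoxA1 alone, 28 of 41 fell with WT (68.3%) and 3 rose (7.32%), while over all genes 18.9% were called lower and 36.6% higher. With K295A 27 fell (65.9%) and 4 rose (9.76%), against 18.3% lower and 38.7% higher over all genes. Of the 29 members that fell after knockdown, 20 fell again with both WT and K295A. The share of all genes with this pattern of calls was not counted, and each of these comparisons uses the shFoxA1 libraries. The unfiltered table of 47 gave 30 lower and 3 higher with WT, and 29 and 4 with K295A. Median log2 differences were -0.47 with WT and -0.31 with K295A, where those of all genes were 0.08 and 0.10. Both comparisons share the shFoxA1 libraries, so the values are set side by side without a test of one against the other. Higher genes made up 65.9% of all calls with WT and 67.9% with K295A, and 49.8% and 49.3% after median-ratio scaling. The members then gave 1 higher and 31 lower with WT, and 3 and 27 with K295A.

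The order of libraries was counted as well. In 21 of the 41 members tested (51.2%) every control library was above every shFoxA1 library, and every shFoxA1 library was above all 6 re-expression libraries. The same order held in 1.48% of all genes tested. MX2 and SAMD9L, below the filter, also had it, which makes 23 of 47.

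IFI27 went from 9.88, 8.26 and 8.79 RPKM with shFoxA1 to 1.76, 2.17 and 1.91 with WT and 1.90, 2.76 and 2.38 with K295A. The WT and K295A libraries were all below the shFoxA1 libraries, with log2 differences of -1.76 ± 0.10 (SE, adjusted p = 5.77e-08) and -1.58 ± 0.10 (adjusted p = 1.45e-07). IFI6 stood at 278, 264 and 270.0 RPKM in the control, 183, 185 and 179 with shFoxA1, 69.6, 67.9 and 70.4 with WT and 85.9, 82.1 and 75.5 with K295A. The groups went from control to shFoxA1 to K295A to WT, highest to lowest, without overlap. It fell by 1.38 with WT (SE 0.04, adjusted p = 1.08e-10) and 1.16 with K295A (adjusted p = 5.2e-10).

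CXCL10 fell further, from a mean of 9.05 RPKM with shFoxA1 to 2.71, 3.12 and 2.89 with WT and 4.01, 3.51 and 4.09 with K295A (log2 differences -1.36 ± 0.056 and -1.05 ± 0.056). RSAD2 went from 7.64 to 2.22, 2.55 and 2.71 with WT and 3.45, 3.43 and 4.01 with K295A (log2 differences -1.31 ± 0.075 and -0.90 ± 0.075). IFITM1, which restricts entry at the plasma membrane, went from 15.6, 16.4 and 16.3 to 5.95, 6.62 and 4.80 and 7.56, 8.39 and 7.98 (-1.34 ± 0.11 and -0.93 ± 0.11). In all 3 genes the shFoxA1 libraries were above both re-expression groups.

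Other members had the same order of groups. SAMD9, an antiproliferative antiviral protein, was at 2.93, 3.04 and 3.22 RPKM in the control, 1.76, 1.67 and 1.66 with shFoxA1, 0.600, 0.616 and 0.522 with WT and 0.608, 0.656 and 0.644 with K295A. XAF1 was at 2.71, 2.25 and 2.21, 1.32, 1.28 and 1.44, 0.310, 0.116 and 0.209 and 0.152, 0.441 and 0.337 in that order. Both re-expression groups were below shFoxA1 in both genes, and shFoxA1 was below the control. SAMD9 differed from shFoxA1 by -0.77 ± 0.069 with WT and -0.72 ± 0.069 with K295A (SE), and XAF1 by -0.96 ± 0.11 and -0.85 ± 0.11. BST2 went from 7.42 RPKM with shFoxA1 to 2.57, 2.17 and 4.39 with WT and 4.24, 4.78 and 4.97 with K295A (log2 differences -1.09 ± 0.15 and -0.57 ± 0.15). LGALS3BP, well expressed throughout, was at 71.0, 68.7 and 66.4 in the control, 41.7, 44.1 and 43.5 with shFoxA1, 33.5, 29.9 and 28.7 with WT and 31.2, 33.1 and 33.3 with K295A, and fell by 0.48 and 0.39 on re-expression. IFITM3 had the smallest of these called steps, from 103, 106 and 105 with shFoxA1 to 96.7, 96.1 and 90.4 with WT and 92.1, 94.998 and 96.8 with K295A, each a log2 difference of -0.14.

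The transcription factors also fell on re-expression, 5 of 5 tested in each comparison. IRF9 was at 15.0, 19.0 and 18.0 RPKM in the control, 12.8, 13.9 and 12.7 with shFoxA1, 7.89, 6.66 and 7.79 with WT and 9.46, 8.85 and 9.34 with K295A. Its difference from shFoxA1 was -0.74 ± 0.081 with WT and -0.47 ± 0.081 with K295A (SE), with no overlap. IFI35, not called after knockdown, fell by 0.63 in both. STAT2 and IRF7 fell by 0.26 and 0.47 with WT and by 0.19 and 0.44 with K295A. ISG15 fell by 0.69 with WT and 0.41 with K295A, and DDX58 by 0.57 and 0.31.

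GBP1, TRIM22, PLSCR1, IFI44L, TRIM21, SP110 and IFI35 were not called after knockdown and fell on re-expression. GBP1 was at 2.08, 2.27 and 2.00 RPKM in the control and 2.63, 2.77 and 2.91 with shFoxA1, then at 0.368, 0.450 and 0.271 with WT and 0.232, 0.724 and 0.338 with K295A (log2 difference -1.47 ± 0.12 (SE), adjusted p = 7.71e-07 with WT, and -1.41 ± 0.12 with K295A). TRIM22, an antiviral ligase, was at 3.70 ± 0.104 in the control and 3.23 ± 0.466 with shFoxA1, and fell by 1.00 with WT and 1.09 with K295A. PLSCR1 differed by -0.83 ± 0.12 and -0.74 ± 0.12, and IFI44L by -0.66 ± 0.10 and -0.64 ± 0.10. CD68, a lysosomal glycoprotein and the single immune marker of 6 that reached 1 RPKM here, went from 13.2 to 33.7 RPKM with shFoxA1 and to 9.05 and 9.80 with WT and K295A. The summed level of the 6 immune markers was 12.8 to 15.3 RPKM in the control, 32.5 to 35.4 with shFoxA1, 8.50 to 9.73 with WT and 9.26 to 10.97 with K295A, with 2 of the 6 at 0 in every library of each group; its part in these results was not tested. The 3 basal-cell markers summed to 2.61 to 2.69 RPKM in the control, 5.42 to 7.496 with shFoxA1, 1.60 to 2.66 with WT and 1.41 to 1.82 with K295A, which was not tested either.

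HERC5, IFI44 and a few more rose on re-expression. HERC5 went from 4.06, 3.53 and 3.86 RPKM with shFoxA1 to 5.74, 7.08 and 6.85 with WT and 6.79, 7.67 and 7.15 with K295A (log2 difference 0.65 ± 0.083 (SE), adjusted p = 3.97e-05, and log2 difference 0.77 ± 0.083 (SE), adjusted p = 9.31e-06). The re-expression libraries were all above shFoxA1 and all below the control. IFI44 went from 16.5, 18.4 and 17.5 to 18.1, 18.7 and 19.5 with WT (0.10 ± 0.057, not called) and 25.3, 22.8 and 22.8 with K295A (0.41 ± 0.057, adjusted p = 6.88e-05). LAP3 rose by 0.18 and 0.14, IFITM2 by 0.17 with WT, and UBE2L6, the conjugating enzyme for ISG15, by 0.42 with K295A. The LAP3 calls in both comparisons and the IFITM2 call were not made after median-ratio scaling. Leaving out a single library ended the calls of DDX60 without shFoxA1 replicate 1 or 2 or 3 or shFoxA1 WT replicate 1 or 3 (adjusted p = 0.0791 to 0.186) with WT. With K295A it ended those of IRF1 without shFoxA1 replicate 2 (adjusted p = 0.0754), UBE2L6 without shFoxA1 replicate 2 (adjusted p = 0.0658), TRIM21 without shFoxA1 replicate 2 or 3 or shFoxA1 K295A replicate 2 or 3 (adjusted p = 0.0604 to 0.0791), PARP9 without shFoxA1 replicate 1 or 3 or shFoxA1 K295A replicate 1 or 2 (adjusted p = 0.0508 to 0.114) and CMPK2 without shFoxA1 replicate 3 or shFoxA1 K295A replicate 1 or 3 (adjusted p = 0.0515 to 0.0954).

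K295A was then compared with WT, to ask whether these genes differ between the mutant and wild-type forms of FOXA1. Few genes were called by limma in this comparison, with 0.0876% of the 12563 genes higher in K295A (11 genes) and 0.0955% lower (12). Of the 41 members, 1 was called higher and 0 lower, and at an unadjusted p under 0.05 there were 14 higher (34.1%) and 1 lower (2.44%), against 7.02% and 3.41% of all genes. Without the filter, 0 of the 47 were called higher and 0 lower. FOXA1 itself was not called (log2 difference -0.0042 with an SE of 0.024).

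ISG15 was the called member, at 166, 166 and 159 RPKM with WT and 195, 192 and 211 with K295A. All K295A libraries were above all WT libraries (log2 difference 0.28 ± 0.045 (SE), adjusted p = 0.0352, 95% interval 0.18 to 0.38). This call was lost without each of the 6 libraries in turn, WT replicates 1, 2 and 3 and K295A replicates 1, 2 and 3 (adjusted p = 0.055 to 0.137). It was also lost with no filter (0.117), with a replicate block (0.0979) and in a fit of the 2 groups alone (0.0809).

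In direction, 37 of the 41 members had a positive K295A minus WT difference, with a median of 0.11 against 0.02 for all genes. In 12 members (29.3%) all 3 K295A libraries were above all 3 WT libraries, and in 1 (2.44%, IFITM2) all were below, where the shares over all genes were 10.5% and 5.44%. An exact permutation test of 3 libraries against 3 cannot go under p = 0.1. RSAD2 was at 2.22, 2.55 and 2.71 RPKM with WT and 3.45, 3.43 and 4.01 with K295A, a log2 difference of 0.41 ± 0.075 (adjusted p = 0.0734, 95% interval 0.24 to 0.57). IFI6 differed by 0.22 ± 0.04 (adjusted p = 0.0624), CXCL10 by 0.32 ± 0.056 (adjusted p = 0.0582) and IFI44 by 0.32 ± 0.057 (adjusted p = 0.0675), all without overlap and none called. BST2 had the largest difference, 0.52 ± 0.15 (95% interval 0.19 to 0.86), with overlapping libraries.

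Other members lay close to 0, and their intervals bound how large a difference could be. IFITM3 differed by 0.00 (95% interval -0.06 to 0.07), LAP3 by -0.04 (-0.13 to 0.05) and IRF7 by 0.03 (-0.10 to 0.16). IFITM2, whose K295A libraries were all below WT, differed by -0.15 (-0.25 to -0.04).

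**Figure D4:**
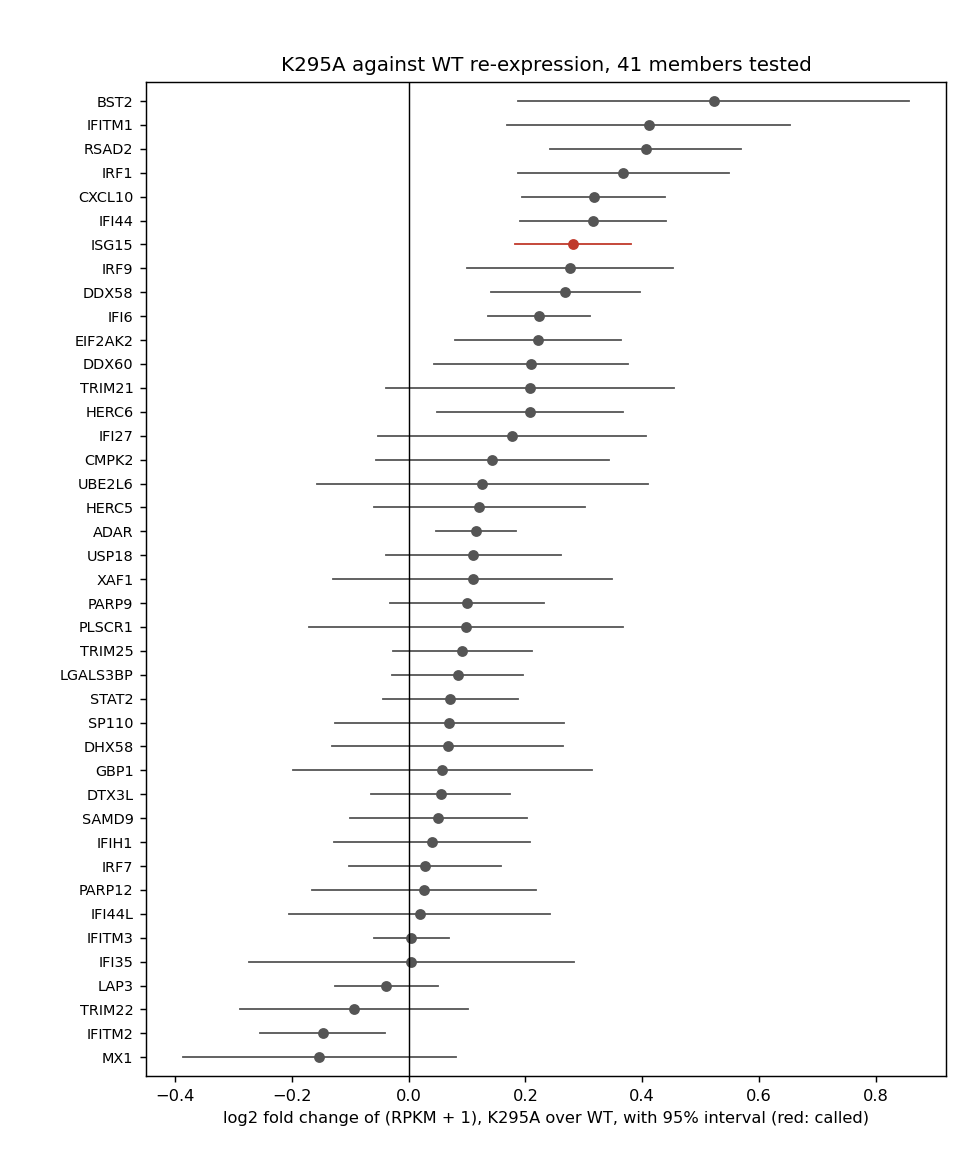
Log2 difference of K295A against WT (x axis, log2(RPKM + 1) scale) for the 41 members tested, with 95% intervals not adjusted for the number of genes. Most points lie to the right of 0, and ISG15, in red, is the called member.

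FOXA1 knockdown in the pLKO experiment gave a mixed picture. Of 32 members tested 11 rose and 11 fell (34.4% each), while 25.2% of all genes were called higher and 45.1% lower. All 47 without the filter gave 12 and 12. The members' median log2 difference was 0.01 and that of all genes -0.15. Median-ratio scaling, which shifts all genes by 0.14 here, gave 15 members higher and 9 lower. Without UBE2L6 and IFITM1, which passed the filter through the pLKO control alone, 11 rose and 9 fell of 30, and the median was 0.071. Single libraries moved the median between -0.030 (without shFOXA1 replicate 2) and 0.10 (without pLKO control replicate 1). Higher genes made up 35.9% of all calls before this scaling and 48.4% after it. The scaling added ISG15, IRF9, IFIH1 and PARP12 to the higher calls, and ended the lower calls of ADAR and IFI35.

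Of the 5 transcription factors tested 3 rose and 1, IFI35, fell. IRF7 went from 3.95, 3.42 and 3.84 FPKM in the pLKO control to 11.2, 11.9 and 12.02 with shFOXA1 (log2 difference 1.43 ± 0.077 (SE), adjusted p = 1.54e-08). STAT2, the ISGF3 subunit, went from 12.1, 11.5 and 11.4 to 20.9, 20.2 and 22.1 (log2 difference 0.80 ± 0.054 (SE), adjusted p = 1.02e-07). IRF1 went from 0.923, 1.20 and 0.847 to 2.17, 2.40 and 2.25 (log2 difference 0.72 ± 0.079 (SE), adjusted p = 6.33e-06). In these 3 factors every knockdown library was above every control library. IRF1 reached 1 FPKM in a single control library, so its passing the filter rested in part on its rise.

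Effectors that rose included BST2, from 0.746, 0.745 and 1.04 to 2.15, 3.52 and 3.03 FPKM (log2 difference 1.07 ± 0.13 (SE), adjusted p = 1.32e-05), and IFITM3, from 58.8, 55.3 and 55.0 to 104, 109 and 101 (log2 difference 0.88 ± 0.094 (SE), adjusted p = 4.94e-06). TRIM22 rose by 0.90 and RSAD2 by 0.74 from near 0 (0.0877 FPKM). LGALS3BP went from 11.6, 12.2 and 13.1 to 30.3, 30.001 and 33.6 (log2 difference 1.28 ± 0.09 (SE), adjusted p = 1.43e-07). None of these overlapped with the control. BST2 reached 1 FPKM in every shFOXA1 library and in a single control library, so its passing the filter rested in part on its rise. TRIM22 and RSAD2 reached 1 FPKM in no control library, so they too passed through knockdown groups where they were high.

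The members that fell included LAP3 and genes of the ISG15 system. LAP3 went from 34.9, 34.5 and 34.0 to 17.8, 16.6 and 16.6 FPKM (log2 difference -0.98 ± 0.061 (SE), adjusted p = 5.2e-08). HERC5 fell by 0.82, TRIM25 by 0.74 and USP18 by 0.63, which makes 3 of the 6 genes of the ISG15 system other than UBE2L6, near the share of all genes called lower, and 0 rose. UBE2L6 was also called lower (-0.60), a direction built into its passing the filter. EIF2AK2 fell by 0.77. IFITM1, whose direction was built in likewise, went from 1.66, 1.23 and 1.92 to 0.289, 0.244 and 0.283 FPKM. The 3 basal-cell markers summed to 0.902 to 1.07 FPKM in the control and 2.39 to 3.16 with shFOXA1, with KRT5 at 0 in both groups, the 3 endothelial markers to 1.70 to 1.77 and 0.110 to 0.248, and the 6 immune markers to 4.16 to 5.17 and 5.32 to 6.51; their part in these results was not tested. Leaving out a single library ended 3 calls: DDX60 without pLKO control replicate 1 or 3 or shFOXA1 replicate 2 or 3 (adjusted p = 0.0699 to 0.117), IFI35 without pLKO control replicate 1 or 2 or shFOXA1 replicate 1 or 2 or 3 (adjusted p = 0.0641 to 0.111) and SP110 without pLKO control replicate 2 or 3 or shFOXA1 replicate 2 or 3 (adjusted p = 0.0598 to 0.0703).

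The FOXA1 knockdowns of the pLKO and pGIPZ experiments have separate controls and can be set against each other for the 32 members tested in both. Of these, 9 (28.1%) rose in pLKO and fell in pGIPZ, against 3.59% of the 12042 genes tested in both. They were DDX60, STAT2, IRF1, IRF7, RSAD2, IFITM3, BST2, IFI44 and LGALS3BP, which make up 9 of the 11 that rose in pLKO and 9 of the 29 that fell in pGIPZ. The calls of DDX60 in pLKO and STAT2 in pGIPZ were those lost without single libraries. BST2, IRF1, RSAD2 and DDX60 passed the filter in pLKO partly through knockdown groups where they were high. RSAD2 stood at 0.122, 0.0960 and 0.0451 FPKM in the pLKO control and 0.625, 0.772 and 1.10 with shFOXA1, but at 36.4 and 7.64 RPKM in the pGIPZ pair. BST2 had a mean of 0.843 FPKM in the pLKO control and 22.3 RPKM in the pGIPZ control. In these 2 genes the pGIPZ knockdown level was still above the pLKO knockdown level, on tables normalized separately. Another 7 (21.9%) fell in both, against 16% of all genes, namely DHX58, UBE2L6, HERC5, USP18, PARP9, IFITM1 and LAP3. Without UBE2L6 and IFITM1, whose pLKO direction was built in, 5 of 30 (16.7%) fell in both, near the share of all genes. The vectors, the controls and the depth of knockdown differ between these experiments and cannot be told apart, and the difference between the knockdowns was not tested.

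**Figure D5:**
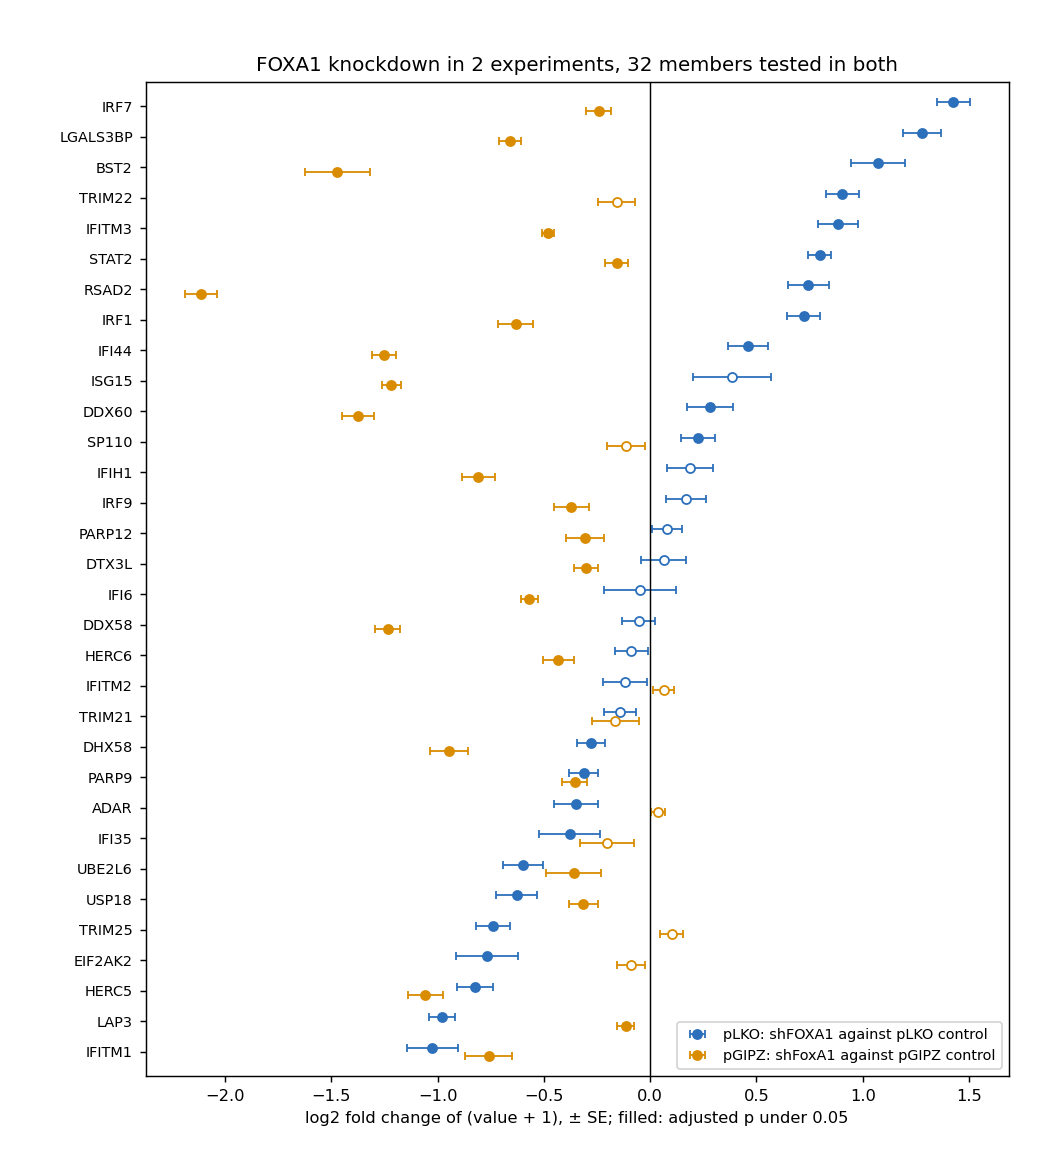
Log2 difference on FOXA1 knockdown (x axis, log2(value + 1) scale, with SE bars) in the pLKO experiment (blue) and the pGIPZ experiment (orange) for each of the 32 members tested in both (y axis, in order of the pLKO value); filled points were called in that experiment. BST2, RSAD2 and LGALS3BP have a filled blue point to the right of 0 and a filled orange point to the left.

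USP7 knockdown changed 26 of the 32 members tested. Of the 32, 16 fell (50%) and 10 rose (31.2%), against 33% lower and 29.1% higher over all genes, and the unfiltered 47 gave 23 lower and 11 higher. The members' median was -0.15 and that of all genes -0.02. UBE2L6 and IFITM1 passed the filter through the control alone, and without them 14 of 30 fell (46.7%) and the median was -0.037. Without pLKO control replicate 1, 2 or 3 these genes were no longer tested and the median was -0.027, -0.045 and -0.041. The share that rose was near that of all genes, and the share that fell was larger. The 3 endothelial markers summed to 1.70 to 1.77 FPKM in the control and 4.28 to 4.62 with shUSP7, with PECAM1 at 0, and the 3 basal-cell markers to 0.902 to 1.07 and 0.288 to 0.422, with KRT5 and TP63 at 0. The immune markers summed to 4.16 to 5.17 and 2.56 to 2.79, and the part of these lists in the results was not tested. This comparison and those of BUB3 and FOXA1 share the pLKO control libraries, so their values are given separately.

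IFITM2 went from 16.9, 16.3 and 16.1 FPKM to 2.45, 3.21 and 3.31 (log2 difference -2.14 ± 0.10 (SE), adjusted p = 1.09e-08). IFITM3 went from 58.8, 55.3 and 55.0 to 24.2, 23.7 and 29.3 (log2 difference -1.11 ± 0.094 (SE), adjusted p = 1.08e-06), and IFITM1, with its direction built in, differed by -1.12. The IFITM genes lie together on chromosome 11 (IFITM2 at chr11:307631-315272, plus strand, and IFITM3 at chr11:319669-327537, minus strand), and every shUSP7 library was below the control in all 3 of them. IFITM1 and IFITM2 overlap in GENCODE 29 and share an identical run of 363 bases, so the authors' counting may have split reads between them, and the runs shared with IFITM3 are 141 and 120 bases.

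Against this, IFI6 went from 7.19, 8.73 and 7.74 to 24.7, 23.0 and 26.1 FPKM (log2 difference 1.53 ± 0.17 (SE), adjusted p = 1.02e-05). TRIM22 went from 0.461, 0.546 and 0.513 to 2.74, 3.07 and 2.497 (log2 difference 1.32 ± 0.078 (SE), adjusted p = 5.27e-08). RSAD2 rose to 1.14, 1.12 and 1.37 from 0.122, 0.0960 and 0.0451 (log2 difference 1.02 ± 0.097 (SE), adjusted p = 2.77e-06). All 3 genes were without overlap. TRIM22 and RSAD2 reached 1 FPKM in all 3 shUSP7 libraries and in no control library. Their passing the filter rested largely on groups where they were high, and both are counted among the members that rose. IRF1 and IFI44 rose by 0.66 and 0.65, and IRF1 reached 1 FPKM in a single control library.

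Within the ISG15 system the modifier and its remover moved apart. ISG15 went from 37.2, 40.9 and 36.6 to 65.3, 67.4 and 74.6 FPKM (log2 difference 0.84 ± 0.18 (SE), adjusted p = 0.00186), and the ligase HERC5 rose by 0.53. USP18 went from 5.14, 4.91 and 5.19 to 1.71, 2.01 and 1.61 (log2 difference -1.13 ± 0.096 (SE), adjusted p = 1.11e-06), and UBE2L6, with its direction built in, differed by -0.51. The 3 tested PARP and DTX3L genes all fell, by 0.29 to 0.43, and DHX58 and EIF2AK2 each fell by 0.68. Leaving out a single library ended 5 of the 26 calls: IFI35 without pLKO control replicate 1 or 2 or shUSP7 replicate 1 (adjusted p = 0.0651 to 0.072), HERC6 without pLKO control replicate 2 or shUSP7 replicate 1 or 3 (adjusted p = 0.0669 to 0.0808), TRIM21 without pLKO control replicate 1 or 2 or 3 or shUSP7 replicate 2 or 3 (adjusted p = 0.0587 to 0.139), BST2 without pLKO control replicate 3 or shUSP7 replicate 1 or 2 (adjusted p = 0.0502 to 0.0978) and LAP3 without pLKO control replicate 1 or 2 or shUSP7 replicate 1 or 2 (adjusted p = 0.0526 to 0.0867). With median-ratio scaling STAT2 and IRF9 were also called higher.

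After BUB3 knockdown 11 of 32 members tested fell (34.4%) and 5 rose (15.6%), against 32% and 33.3% of all genes, and the unfiltered 47 gave 16 and 4. The share that fell was near that of all genes and the share that rose was below it. Without UBE2L6 and IFITM1 9 of 30 fell (30%). Median differences were -0.02 for members, with -0.064 to 0.020 leaving out a library each, and 0.01 for all genes. The endothelial markers summed to 2.91 to 3.46 FPKM and the basal-cell markers to 0.1199 to 0.246 with shBUB3, which were not tested for their part either. IFITM2 went from 16.9, 16.3 and 16.1 to 3.90, 4.21 and 5.15 FPKM (log2 difference -1.69 ± 0.10 (SE), adjusted p = 6.43e-08), IFITM3 from 58.8, 55.3 and 55.0 to 27.2, 30.6 and 34.9 (log2 difference -0.85 ± 0.094 (SE), adjusted p = 9.12e-06), and IFITM1, with its direction built in, differed by -1.06. All shBUB3 libraries were below the control in these 3. IRF9 and IRF7 fell by 0.52 and 0.45, and USP18 by 0.54.

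ISG15 rose, from 37.2, 40.9 and 36.6 FPKM to 60.2, 61.2 and 110.0 (log2 difference 0.94 ± 0.18 (SE), adjusted p = 0.000819). The groups did not overlap, and the third shBUB3 library, which stood apart in its summed FPKM, was the highest. SP110, a nuclear body protein, rose by 0.49, TRIM25 by 0.36 and LAP3 by 0.26. Without shBUB3 replicate 3 the number of members called higher went from 5 to 9. Leaving out a single library ended the calls of IRF1 without pLKO control replicate 2 or shBUB3 replicate 1 (adjusted p = 0.0976 to 0.113) and IFI44 without pLKO control replicate 1 or 2 or shBUB3 replicate 3 (adjusted p = 0.0657 to 0.123). With median-ratio scaling 7 members were higher and 11 lower.

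EZH2 knockdown by siRNA went with higher levels of many members. Of 31 tested 15 rose (48.4%) and 5 fell (16.1%), whereas 20.3% of all genes were called higher and 43% lower. All 47 without the filter gave 17 higher and 6 lower. The members' median was 0.20 and that of all genes -0.16. RSAD2, IFITM1 and CXCL10 passed the filter through siEZH2 alone, and without them 12 of 28 rose (42.9%) and the median was 0.16. IFI44 and IRF1, which passed in part through siEZH2, are still among those 12. Median-ratio scaling, which shifts all genes by 0.13, gave 18 and 4. Higher genes made up 32.1% of all calls before it and 45.8% after it.

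Among the sensors DDX58 rose, from 1.41, 1.30 and 1.37 to 3.41, 3.46 and 2.66 FPKM (log2 difference 0.82 ± 0.10 (SE), adjusted p = 7.61e-05), the single call of 6. Of 5 tested factors 4 rose. IRF9 went from 3.19, 3.72 and 3.71 to 7.86, 7.02 and 8.45 (log2 difference 0.95 ± 0.095 (SE), adjusted p = 1.38e-05) and IRF1 from 0.932, 1.22 and 1.16 to 2.86, 2.75 and 3.24 (log2 difference 0.91 ± 0.10 (SE), adjusted p = 3.02e-05). IRF7 and STAT2 rose by 0.74 and 0.52, and IFI35 fell by 0.50. Apart from IFI35, the siEZH2 libraries of these genes were all above siCtrl. IRF1 was under 1 FPKM in a single siCtrl library (0.932), so its passing the filter rested in part on its rise.

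Of the 7 genes of the ISG15 system 3 fell, a share near that of all genes, and 1 rose. TRIM25 went from 22.7, 22.5 and 21.1 to 8.40, 7.13 and 7.45 FPKM (log2 difference -1.42 ± 0.08 (SE), adjusted p = 3.65e-07) and HERC6 from 3.80, 4.83 and 4.18 to 1.75, 1.90 and 1.47 (log2 difference -0.96 ± 0.11 (SE), adjusted p = 2.96e-05), with no overlap. USP18 fell by 0.41 and ISG15 rose by 0.36.

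Among the others 5 of 6 tested rose, and among the effectors 3 of 4 rose and IFITM2 fell, counts that include CXCL10, RSAD2 and IFITM1. IFI6 went from 7.88, 9.55 and 10.4 to 19.6, 25.6 and 25.7 FPKM (log2 difference 1.26 ± 0.12 (SE), adjusted p = 1.15e-05), IFI44 from 0.916, 0.915 and 1.06 to 3.78, 3.72 and 3.57 (log2 difference 1.26 ± 0.091 (SE), adjusted p = 1.61e-06) and LGALS3BP from 6.93, 8.56 and 8.02 to 18.0, 19.8 and 21.3 (log2 difference 1.23 ± 0.095 (SE), adjusted p = 2.45e-06). CXCL10, which passed the filter through siEZH2 alone, went from 0.0619, 0.325 and 0.0470 to 2.37, 2.59 and 2.08 (log2 difference 1.55 ± 0.12), and RSAD2, in the same position, from 0.172, 0.270 and 0.179 to 1.04, 1.90 and 1.28 (0.98 ± 0.14). All siEZH2 libraries were above siCtrl in these 5. IFI44 reached 1 FPKM in every siEZH2 library and in a single siCtrl library, so its passing the filter rested in part on its rise. IFITM3 rose by 0.80 and SP110 and DTX3L by 0.47 and 0.48. IFITM1, also with its direction built in, differed by 0.50, a call not made without the filter, and the IFITM2 call (-0.33) was lost without siCtrl replicate 3 (adjusted p = 0.0552) and after median-ratio scaling. The summed level of the 5 fibroblast markers was 3.17 to 3.88 FPKM in siCtrl and 11.3 to 14.7 in siEZH2, with 2 and 1 of the 5 at 0 in all libraries, and that of the 10 luminal markers was 2444 to 2543 and 645 to 759; their part in these results was not tested.

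The upstream pathway was read from 36 genes that are not members, 34 of them in the tables under the symbols searched. IFNA1, IFNE and IFNG, ligands, were at 0 in all groups, and IFNB1 had a mean of at most 0.355 RPKM. In 4 of the 8 ligands every shFoxA1 library was below every pGIPZ control library, an order that held in 28% of all genes tested. Of the ligands only IFNL1 passed the filter in the pGIPZ experiment. IFNL1, a type III interferon, was at 1.36, 1.70 and 1.66 RPKM in the pGIPZ control, 0.483, 0.595 and 0.415 with shFoxA1, 0.0874, 0.740 and 0 with WT and 0.0918, 0.356 and 0.219 with K295A (knockdown log2 difference -0.78 ± 0.18 (SE), adjusted p = 0.00392). Its receptor chain IFNLR1 had a highest mean of 0.0563, in siCtrl.

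Of 5 receptor genes tested, 1 rose and 1 fell with shUSP7, and 3 rose and 0 fell with shBUB3. There were 1 higher and 2 lower with siEZH2, 2 and 2 with shFOXA1, and 1 and 2 with shFoxA1. On re-expression 0 rose, and 2 fell with WT and 3 with K295A. The shares of all genes called in each comparison are given with the pathway counts below. IFNAR1, a chain of the type I interferon receptor, went from 20.4, 23.3 and 21.4 to 6.09, 4.85 and 4.53 FPKM with siEZH2 (log2 difference -1.89 ± 0.10 (SE), adjusted p = 2.98e-07), and IFNAR2 fell by 0.83 in the same cells, in which 15 members rose. IFNGR1, a chain of the interferon gamma receptor, rose with FOXA1 knockdown in both experiments (1.04 in pLKO and 0.96 in pGIPZ) and fell on re-expression (-1.23 with WT and -1.26 with K295A). JAK1 was low in 2 control groups, at 1.22 ± 0.0919 FPKM in the pLKO control and 1.89 ± 0.142 RPKM in the pGIPZ control. With shUSP7 all 5 kinase and STAT genes tested were called higher (log2 differences 0.25 to 0.91), against 29.1% of all genes. In each other knockdown 1 or 2 of these 5 rose and 1 or 2 fell.

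IRF2 and SOCS1 rose with shFoxA1, where most members fell, and fell on re-expression. IRF2, a repressor that competes for the ISRE, went from 5.79, 5.71 and 5.77 RPKM to 8.61, 7.73 and 8.38 with shFoxA1 (log2 difference 0.45 ± 0.067 (SE), adjusted p = 0.000149) and then fell by 0.74 with WT and 0.50 with K295A. SOCS1, the feedback inhibitor of JAK kinases, was at 0.441, 0.959 and 0.756 in the control, 2.24, 2.15 and 1.17 with shFoxA1, 0.308, 0.521 and 0.283 with WT and 0.646, 0.564 and 0.463 with K295A (knockdown log2 difference 0.72 ± 0.16 (SE), adjusted p = 0.00319). In pLKO SOCS1 went from 0.117, 0.520 and 0.304 to 5.14, 4.24 and 4.25 FPKM with shFOXA1 (log2 difference 2.08 ± 0.11 (SE), adjusted p = 1.77e-08). The knockdown libraries were above the control in each of these comparisons. MAVS fell by 1.03 and IRF3 rose by 0.74 with shFOXA1 in pLKO. Over the pathway list, the counts called higher and lower were 10 and 3 of 22 tested with shUSP7, 7 and 3 with shBUB3, 11 and 7 with shFOXA1, 5 and 6 of 20 with siEZH2, and 8 and 6 of 23 with shFoxA1. They were 1 and 9 with WT, 1 and 8 with K295A, and 0 and 0 in K295A against WT. Of all genes tested, 29.1% were called higher and 33% lower with shUSP7, and 33.3% and 32% with shBUB3. The shares were 25.2% and 45.1% with shFOXA1, 20.3% and 43% with siEZH2, and 25% and 24.2% with shFoxA1. Against shFoxA1 alone they were 36.6% and 18.9% with WT and 38.7% and 18.3% with K295A. In K295A against WT they were 0.0876% and 0.0955%.

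The IFIT and OAS genes, 8 interferon-induced genes outside the 47, gave 0 higher and 7 lower of 8 with shFoxA1, 0 and 8 with WT, and 1 and 7 with K295A. In K295A against WT 4 of the 8 were called higher, with IFIT2 and IFIT3 at 0.54 and 0.58, where 1 of the 41 members was; the difference between these lists was not tested.

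Members that lie side by side on the genome did not always move together. HERC5 and HERC6, 14006 bases apart on chromosome 4, differed by -0.18 (not called) and -0.96 with siEZH2, and by 0.77 and 0.14 (not called) with K295A. IFI44 and IFI44L, 3651 bases apart, differed by -1.25 and -0.09 (not called) with shFoxA1. RSAD2 and CMPK2, whose annotated exons overlap on opposite strands, fell by 2.11 and 0.69 with shFoxA1, and PARP9 and DTX3L also overlap. The strand setting of the authors' counting is not given in the sources used here, so reads in these overlaps cannot be assigned to either gene. Over all 8 comparisons 7 members were called in none (IFI16, NMI, PARP14, MX1, MX2, SAMD9L and EPSTI1). Of those 7 only MX1, a dynamin-like GTPase, was tested, in the pGIPZ experiment, where it had 0.904, 1.02 and 1.10 RPKM in the control and 0.836, 1.07 and 1.09 with shFoxA1 (-0.00 ± 0.11).

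Of the 6 members that passed the filter in no experiment, MX2 and SAMD9L had the same order of pGIPZ libraries as the 21 counted above. MX2, which blocks nuclear entry of viral genomes, was at 0.543, 0.591 and 0.451 RPKM in the control, 0.195, 0.368 and 0.270 with shFoxA1, 0.0253, 0.0713 and 0.0698 with WT and 0.186, 0.0257 and 0.0634 with K295A. SAMD9L was at 0.287, 0.367 and 0.374, 0.1502, 0.183 and 0.186, 0.0314, 0.0443 and 0.115 and 0.0549, 0.0213 and 0.0394 in the same order. The control libraries were the highest and the re-expression libraries the lowest in both, with no test. The others were low in the pGIPZ control, with 0.138 ± 0.0329 RPKM for IFI16, 0.667 ± 0.108 for NMI, 0.826 ± 0.125 for PARP14 and 0.221 ± 0.0349 for EPSTI1 (SD, n = 3).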

How the data were processed

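RNA-seq of 30 LNCaP libraries, 3 in each of 10 groups, was analysed from the authors' deposited expression tables: FPKM per gene in pLKO and siRNA libraries, and RPKM per gene in pGIPZ libraries. Per the submitters' processing notes, the authors used STAR and the hg38 build. No source used here gives the STAR version, counter, annotation or strand setting. Each table lists 26475 genes, of which 32 had no values and 26443 were used. Read totals are not in these tables, so relative depth was read from the lowest values: 0.9 to 1.3 in pLKO, 0.602 to 0.831 in siRNA and 0.847 to 1.298 in pGIPZ. Within groups the lowest correlation of log2 values was 0.992, and 0 pairs of columns were identical.

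Each experiment was fitted alone with limma 3.58.1 (R 4.3.3) on log2(value + 1), with a term per group and an intensity trend, after a filter that kept genes at 1 or above in 3 or more libraries. A gene was called at a two-sided Benjamini-Hochberg adjusted p under 0.05 over all genes tested, and named members were the up to 8 called with the largest change in a comparison (10 in K295A against WT), those called in opposite directions in 2 comparisons, and others by counts or levels. The members, roles and other gene lists were chosen with earlier results of these data known. Alternatives were a pseudocount of 0.1, no filter, median-ratio scaling, a replicate block, fits of 2 groups alone and leaving out each library. The fit was tested on simulated data. Same-numbered libraries correlated at -0.185 to 0.126 in pLKO, -0.126 to 0.058 in siRNA and -0.069 to 0.041 in pGIPZ, so the numbers were not taken as pairs. Promoters came from the RefSeq table (GRCh38.p14) and gene positions from GENCODE 29 (GRCh38). Tables and figures used Python 3.11.15, pandas 2.3.3, NumPy 2.4.6 and matplotlib 3.10.9.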

Additional observations from a re-analysis of the deposited data

Results flagged for a closer look

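FOXA1 was knocked down in 2 experiments with separate controls, and in 14 of the 32 members tested in both every knockdown library of one experiment moved one way from its controls and every library of the other moved the opposite way. The share of all genes with this pattern was not counted, so the count of members is a description only. Over all genes tested, the 3 and 3 libraries did not overlap in 79.4% with shFOXA1 in pLKO and in 56.4% with shFoxA1 in pGIPZ. The difference between the experiments was not tested. Log2 differences are given for pLKO first and pGIPZ second. In 12 of the 14 the pLKO value was positive and the pGIPZ value negative. Among sensors these were IFIH1 (0.19 and -0.81) and DDX60 (0.28 and -1.37). Among factors they were STAT2 (0.80 and -0.16), IRF1 (0.72 and -0.63), IRF7 (1.43 and -0.24) and IRF9 (0.17 and -0.37). ISG15 had 0.38 and -1.22, and the effectors RSAD2, IFITM3 and BST2 had 0.74 and -2.11, 0.88 and -0.48, and 1.07 and -1.47. IFI44 and LGALS3BP had 0.46 and -1.25, and 1.28 and -0.66. ADAR (-0.35 and 0.04) and TRIM25 (-0.74 and 0.10) went the other way round, and neither was called in pGIPZ. The pLKO values of IFIH1, IRF9 and ISG15 were not called either. CXCL10 and IFI27, which were not tested in pLKO, had the same order of libraries, with pLKO means of 0.161 FPKM in the control and 1.02 with shFOXA1 for CXCL10, and 0.218 and 0.706 for IFI27, and both were called lower in pGIPZ, which makes 16 of the 47.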

How the results depend on the processing

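Of 138 named gene values, 0 reversed and 22 lost their call in at least 1 alternative tried. Median log2 differences of the members moved as follows. With shUSP7 the median was -0.12 without the filter, -0.095 with scaling, -0.037 in the fit of 2 groups, and -0.19 to -0.027 leaving out a library each. With shBUB3 leaving out a library gave -0.064 to 0.020. With shFOXA1 it was 0.15 with scaling, -0.049 in the fit of 2 groups and -0.030 to 0.10 leaving out a library. With siEZH2 it was 0.34 with a pseudocount of 0.1, 0.14 without the filter, 0.31 with scaling and 0.15 to 0.27 leaving out a library. With shFoxA1 it was -0.47, -0.34, -0.38 and -0.44 to -0.35 in the same order. With WT it was -0.54, -0.33, -0.55, -0.44 in the fit of 2 groups, and -0.48 to -0.43 leaving out a library. With K295A against shFoxA1 it was -0.38, -0.27 and -0.40, and against WT 0.081 to 0.11 leaving out a library.

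Not counting members that passed the filter in 1 group, a choice made after seeing the data, the median was -0.037 with shUSP7, 0.071 with shFOXA1 and 0.16 with siEZH2. Counts moved in fewer places. Members called higher with shFoxA1 went from 0 to 1 in the fit of 2 groups (GBP1), and ranged 0 to 1 leaving out a library. With WT they went from 3 to 1 with scaling, and with shBUB3 they ranged 4 to 9 leaving out a library. In K295A against WT, members called higher were 3 with a pseudocount of 0.1, 0 without the filter, 0 in the fit of 2 groups and 0 to 1 leaving out a library. Over all genes this comparison gave 6 higher and 5 lower without the filter, 19 lower with scaling, 3 and 3 in the fit of 2 groups, and 5 to 9 higher and 4 to 9 lower leaving out a library.

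A replicate block, for the shared replicate numbers that did not pair the libraries, gave 10 members higher and 10 lower with shFOXA1, 5 and 27 with K295A against shFoxA1, and 0 and 0 in K295A against WT, where it called 6 genes higher in all. Other counts of members did not change with the block. With 3 libraries a group, read totals unknown and each experiment tied to its own vector, small differences of low members are the least certain.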
